A study of Homo sapiens with 2 samples.

Results

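CHD4 peaks that are centred in exons and lie away from promoters were described in 501Mel, an established human melanoma cell line. A peak was included when it was on chromosomes 1 to 22 or X, was longer than 200 bp and shorter than 3000 bp, did not touch the 1000 bp on either side of any GENCODE release 44 transcript start, and had its centre in an exon of the canonical transcript of a protein-coding gene. These conditions left 811 peaks of the 60126 in the deposited list, in 733 genes. A further 11 peaks in exons of *NRAS* and *BRAF* met the conditions and were left out. The list came from 1 CHD4 ChIP library and 1 input library, both labelled as fixed and sonicated chromatin of 501Mel cells grown in RPMI medium with foetal calf serum. The labels name no treatment and no genotype, and all values describe this line alone. A peak list carries no expression values, so the cell type label could not be checked against marker genes. Neither library was replicated, so the spread between repeats is unknown and no difference was tested. The list holds no read counts, so the depth behind a peak is unknown. Intervals given below cover counting error only, and peaks are not replicates.

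CHD4 is an ATPase of the NuRD complex, which moves nucleosomes and, through HDAC1 and HDAC2, removes acetyl groups from histones. An exon is a stretch of a gene kept in the mature RNA, and it is flanked inside the gene by introns, which begin with GT and end with AG. Most coding exons are about as long as the DNA around a nucleosome, whereas the last exon of a gene often carries a long 3' untranslated region (3' UTR), which follows the stop codon and is not translated. Chromatin immunoprecipitation recovers DNA near a protein whether the DNA is exonic or not, so a peak can cover a whole small exon and its flanks or lie inside a long one. Positions below are on hg19, counted from 1.

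The 5 coding exons shown were taken because they lie wholly under peaks that are among the strongest of their kind, are 60 to 250 bp long and are coding over their whole length. Each is written along the gene from the GRCh37 sequence, with the exon in capitals and 20 bases of intron on each side in lower case.
*COG3* exon 16 of 23, chr13:46085880-46086009, plus strand: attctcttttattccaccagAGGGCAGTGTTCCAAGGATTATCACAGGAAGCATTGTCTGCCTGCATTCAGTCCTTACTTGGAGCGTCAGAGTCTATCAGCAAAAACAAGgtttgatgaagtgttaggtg
*ANAPC5* exon 4 of 17, chr12:121783622-121783854, minus strand: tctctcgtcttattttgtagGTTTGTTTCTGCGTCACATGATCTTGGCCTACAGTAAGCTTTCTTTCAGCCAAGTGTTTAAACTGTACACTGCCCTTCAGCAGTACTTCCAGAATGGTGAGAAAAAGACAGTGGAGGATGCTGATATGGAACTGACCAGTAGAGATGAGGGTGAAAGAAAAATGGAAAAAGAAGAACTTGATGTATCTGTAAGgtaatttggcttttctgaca
*NTNG1* exon 6 of 8, chr1:107973352-107973559, plus strand: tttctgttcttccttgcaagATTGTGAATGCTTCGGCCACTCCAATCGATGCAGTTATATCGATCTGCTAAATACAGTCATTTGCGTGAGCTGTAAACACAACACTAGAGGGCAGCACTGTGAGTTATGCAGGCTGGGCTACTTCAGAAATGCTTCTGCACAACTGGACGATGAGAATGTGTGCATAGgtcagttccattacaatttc
*FGD3* exon 5 of 18, chr9:95766263-95766439, plus strand: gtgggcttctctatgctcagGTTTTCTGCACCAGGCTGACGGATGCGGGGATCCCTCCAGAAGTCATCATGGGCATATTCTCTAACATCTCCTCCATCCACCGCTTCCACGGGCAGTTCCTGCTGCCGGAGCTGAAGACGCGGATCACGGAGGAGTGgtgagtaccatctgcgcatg
*TMEM268* exon 4 of 9, chr9:117389159-117389306, plus strand: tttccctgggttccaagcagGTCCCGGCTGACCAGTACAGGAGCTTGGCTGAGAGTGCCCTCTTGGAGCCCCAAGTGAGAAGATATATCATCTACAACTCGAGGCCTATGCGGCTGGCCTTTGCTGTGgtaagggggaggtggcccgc

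The exon peaks made up 2.06% (Wilson 95% interval 1.93% to 2.21%) of the 39287 peaks that passed the same conditions on length and promoters. Canonical exons made up 1.98% of the sequenced base pairs away from promoters, or 51.9 Mb. The ratio of these shares was 1.04 (0.974 to 1.12), so peak centres fell in exons about as often as the length of exons gives. Expressed per length, the exon peaks numbered 15.6 per Mb of exon away from promoters (exact Poisson 95% interval 14.6 to 16.7). Later introns held 16.2 peaks per Mb (15.9 to 16.5), first introns 22.6 (22.02 to 23.2) and sequence outside canonical protein-coding transcripts 13.3 (13.1 to 13.5). The interval of exons thus overlapped that of later introns and lay below that of first introns. Lengths here and below leave out gaps but not repeated sequence, where a read may have no single best position. The authors kept only reads with such a position, and the part of this in the ratio and the densities was not tested.

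Within exons, peak centres were more dense in the 3' UTR than in coding sequence. The 3' UTR held 551 of the 811 centres, or 67.9% (64.7% to 71.1%), and supplied 58.3% of the exon length away from promoters. Coding sequence held 257 centres, or 31.7% (28.6% to 35.0%), and supplied 41.0% of that length. Per Mb this gave 17.8 centres in the 3' UTR (16.4 to 19.4) and 11.8 in coding sequence (10.4 to 13.4), whose intervals do not overlap. The order did not hold among the 14 exon peaks whose −log10 q, the false discovery measure of the authors' peak caller, reached 5. Of these, 7 were centred in each, so that coding sequence held 50.0% beside its 41.0% of length. With 14 peaks this does not establish another order. Among the 355 peaks that reached 2, coding sequence held 33.8%. The 5' UTR held 3 centres, since most of it lies within 1000 bp of a transcript start and was barred by the promoter condition.

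By place in the transcript, 592 centres lay in last exons, 210 in internal exons, 9 in genes with a single exon and 0 in the first exon of a gene with several. Such first exons supplied only 0.369% of the exon length away from promoters. Their upper bound of 18.9 centres per Mb lies above the 15.6 of all exons. Last exons held 16.9 centres per Mb (15.6 to 18.3) and internal exons 12.4 (10.8 to 14.2). Among those 14 peaks the share in last exons was 57.1%, below the 66.1% of exon length that last exons supplied. By exon length the density ran from 13.6 centres per Mb in exons of over 100 to 200 bp (11.3 to 16.4) to 18.5 in exons of over 500 to 1000 bp (13.9 to 24.0), with intervals that overlap. The final 20% of the transcript's span held 619 centres, or 76.3% (73.3% to 79.1%), and 69.2% of exon length. Centres within 1000 bp of the transcript end numbered 253, or 31.2% (28.1% to 34.5%), beside 26.0% of exon length.

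**Figure D1:**
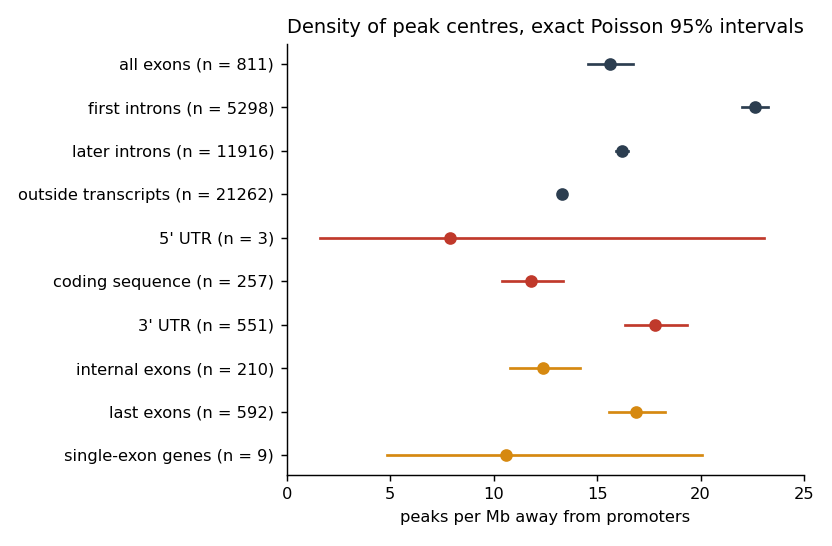
Peaks per Mb of sequence away from promoters (horizontal axis) for exons, introns and sequence outside canonical protein-coding transcripts (dark), for parts of exons (red) and for the place of the exon in its transcript (orange). Points are counts over base pairs and lines are exact Poisson 95% intervals. The 3' UTR, at 17.8 per Mb, lies to the right of coding sequence, at 11.8 per Mb.

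The strength of the exon peaks was close to that of other peaks away from promoters. Fold enrichment is the authors' ratio of the ChIP signal over the background of their peak caller. Its median over the 811 exon peaks was 3.03, with quartiles of 2.83 and 3.31 and a range from 2.00 to 6.52. The medians were 3.02 in first introns, 3.02 in later introns and 3.03 outside transcripts, and 3.15 among the 12152 promoter peaks of the same length range. Coding and 3' UTR centres had medians of 3.04 and 3.02. A −log10 q of at least 5 was given for 14 exon peaks, or 1.73% (1.03% to 2.88%), beside a background of 1.46% of all peaks away from promoters and 2.23% of all peaks on these chromosomes. A −log10 q of at least 2 was given for 355 exon peaks, or 43.8% (40.4% to 47.2%), beside 42.2%. The paper's reporting summary gives a q cutoff of 0.01 for the peak call, which is a −log10 q of 2. The deposited list also holds weaker peaks, down to 1.01 among exon peaks, so most exon peaks lie below that stated cutoff. A fold enrichment of at least 4 was given for 34, or 4.19% (3.02% to 5.80%), beside 3.81%. All of these shares lie near their background among peaks away from promoters.

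**Figure D2:**
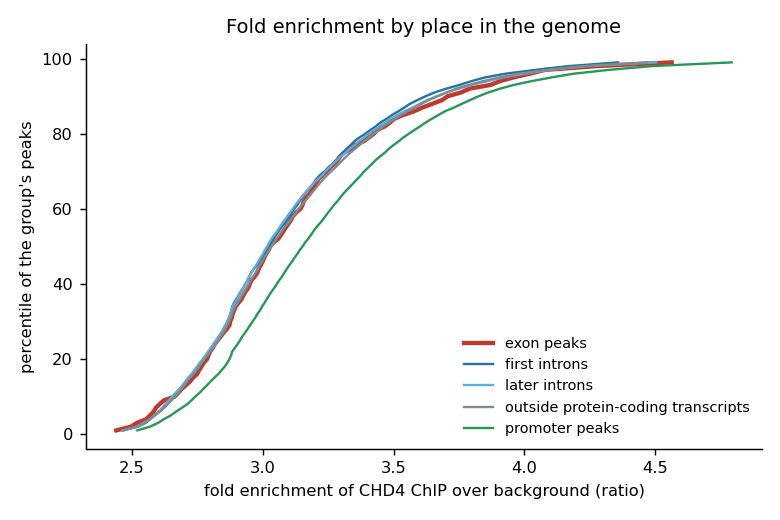
Percentile of the peaks of each group (vertical axis) against the authors' fold enrichment of CHD4 ChIP over background (horizontal axis), from the first to the 99th percentile. The curve of exon peaks, median 3.03, runs with those of introns and of sequence outside transcripts, and the curve of promoter peaks, median 3.15, lies to the right.

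The lengths of the exon peaks had a median of 608 bp, beside 620 bp in first introns, 627 bp in later introns and 716 bp at promoters. The shortest had 201 bp and the longest 2956 bp. Just outside the length conditions lay 125 exon-centred peaks of at most 200 bp, with a median fold enrichment of 3.17, and 34 of 3000 bp or more, the shortest of 3011 bp. The exon peak nearest to a transcript start lay 1004 bp away, and 822 exon-centred peaks of the same length range overlapped a promoter and were not included. The median distance to the nearest start was 5299 bp, beside 7817 bp in first introns and 10235 bp in later introns. The gap to the nearest other peak had a median of 3951 bp, beside 2856 bp in first introns and 3765 bp in later introns.

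The exon peaks had a median GC content of 44.4%, with quartiles of 38.4% and 53.0%. Peaks in first introns and later introns had medians of 42.4% and 41.5%, and promoter peaks 50.7%. All exon bases away from promoters had a GC content of 45.4%. The CpG ratio compares the CG pairs seen with those that the C and G content gives, and it is low where methylated CG pairs have been lost over evolution. Its median was 0.230 in exon peaks, 0.181 in peaks of both kinds of intron and 0.361 in promoter peaks. A ratio of at least 0.6, a usual mark of CpG islands, was reached by 26 exon peaks, or 3.21% (2.20% to 4.66%), beside 0.906% (0.751% to 1.09%) in later introns and 25.2% (24.4% to 26.0%) at promoters. *SYNPO* exon 3 of 3, which encodes a cytoskeletal protein, was one of them, with a CpG ratio of 0.704 and a fold enrichment of 4.08. It was picked out after its values were seen.

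The 15 exon peaks of highest fold enrichment had values from 4.32 to 6.52. The strongest lay in the last exon of *MINDY2*, a deubiquitinase gene, from 59153257 to 59153468 on chromosome 15. Its fold enrichment was 6.52, its −log10 q 10.9 and its length 212 bp, and it lay wholly within the 7419-bp exon 9, in its 3' UTR. A gene named ENSG00000259353 is also annotated at its centre, and the peak cannot be assigned to either alone. The next was in *PAX3*, which encodes a transcription factor of the neural crest and melanocyte lineage. It spanned 223084812 to 223085095 on chromosome 2, with a 5.19-fold enrichment and a −log10 q of 7.56. All 215 bp of exon 7 lay under it, and it ended 47 and 22 bp beyond the exon. The *PAX3* transcript overlapped 17 peaks of the list, and a peak also lay within 1000 bp of its start.

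*COG3* encodes a subunit of a Golgi tethering complex, and its exon 16 lay under a peak from 46085631 to 46086303 on chromosome 13 with a fold enrichment of 4.86. *NRSN2*, a gene for a neuronal membrane protein, had a value of 4.77 in the 3' UTR of exon 5 on chromosome 20. *ANAPC5*, a subunit gene of the anaphase-promoting complex, had 4.76 over the whole of exon 4 on chromosome 12. That peak was 1786 bp long, from 121782784 to 121784569, and was the sole peak over the canonical transcript, although the list has a peak that reaches within 1000 bp of the gene's start. The *NTNG1* exon, part of a membrane-anchored netrin that guides axons, was enriched 4.75-fold with a −log10 q of 7.94, from 107973250 to 107973593 on chromosome 1.

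*ZBTB34*, a zinc finger gene, had 4.62 in the 3' UTR of exon 2 and *SCLY*, which encodes selenocysteine lyase, had 4.59 in the 3' UTR of exon 12. The *SCLY* peak also lies in the read-through gene *UBE2F-SCLY*. *FGD3* encodes a guanine nucleotide exchange factor, and its peak, from 95766221 to 95766429 on chromosome 9, had a fold enrichment of 4.58 and ended 62 and 10 bp beyond exon 5. Last exons also held the peaks of *CA12*, a membrane carbonic anhydrase gene (4.45), *PPARGC1B*, a transcriptional coactivator gene (4.41), and *PRDM15*, a zinc finger gene (4.39). Coding centres were found in *MAMSTR*, a coactivator of MEF2 factors (4.38), *NEB*, which encodes the muscle protein nebulin (4.34, exon 73 of 182), and *GEN1*, which encodes a nuclease that resolves DNA junctions (4.32). The *GEN1* centre also lies within *SMC6*. Of these 15 peaks, 8 had their centre in coding sequence and 7 in the 3' UTR.

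**Figure D3:**
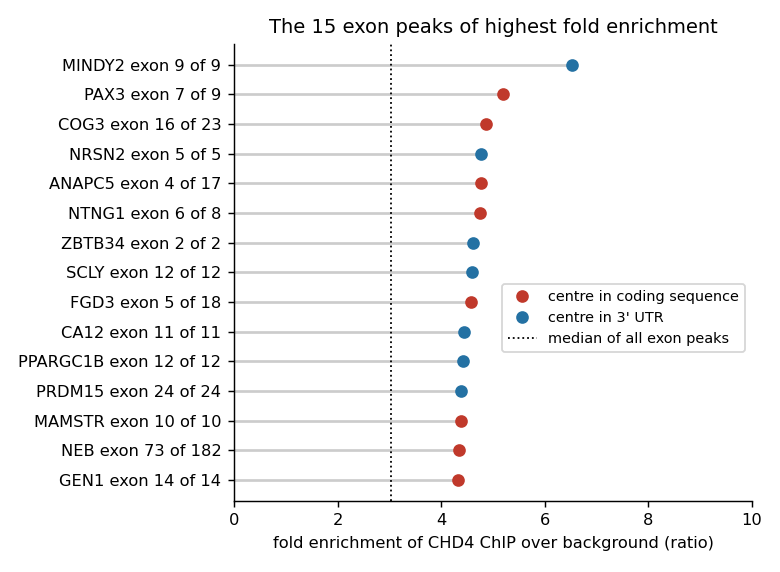
Fold enrichment of CHD4 ChIP over background (horizontal axis) at the 15 strongest exon peaks, each named by gene and by the exon at its centre. Red points have their centre in coding sequence and blue points in the 3' UTR. *MINDY2*, at 6.52, stands above the others, and all lie above the dotted line at the median of exon peaks, 3.03.

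The peaks related to their exons in 3 ways. In 400 cases, or 49.3% (45.9% to 52.8%), the peak lay wholly inside the exon, whose median length was then 4536 bp. In 203 cases, or 25.03% (22.2% to 28.1%), it covered the whole exon, of median length 147 bp, and the exon was a median of 26.4% of the peak. In the remaining 208, or 25.6% (22.8% to 28.8%), it crossed 1 exon edge. Median fold enrichments were 2.99, 3.04 and 3.10. A peak overlapped more than 1 exon of its transcript in 44 cases, and 4 exons at most. The median distance that a peak covering a whole exon reached beyond an exon end was 245 bp.

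Of the 203 peaks that covered a whole exon, 17 ended within 100 bp of it on both sides, or 8.37% (5.29% to 13.0%). They lay in 17 genes and were 203 to 324 bp long. Length alone brings short peaks close to exon ends: 31 of the 203 were no longer than 324 bp, and the 17 were 54.8% (37.8% to 70.8%) of these. Their fold enrichments ran from 2.57 to 5.19 with a median of 3.10. *PAX3* and *FGD3* led, followed by *MSRB3*, a methionine sulfoxide reductase gene (3.61), and among the others was *TBC1D15*, a GTPase-activating protein gene (3.39). *PKM*, the pyruvate kinase gene, was also among them. Its peak, from 72492726 to 72493049 on chromosome 15, covered the 182 bp of exon 10 of the 11 in the canonical transcript. That number counts the exons of this transcript and may differ from the one used for the gene's alternative exons. The peak reached 89 and 53 bp beyond the exon, and was enriched 3.002-fold with a −log10 q of 1.83.

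**Figure D4:**
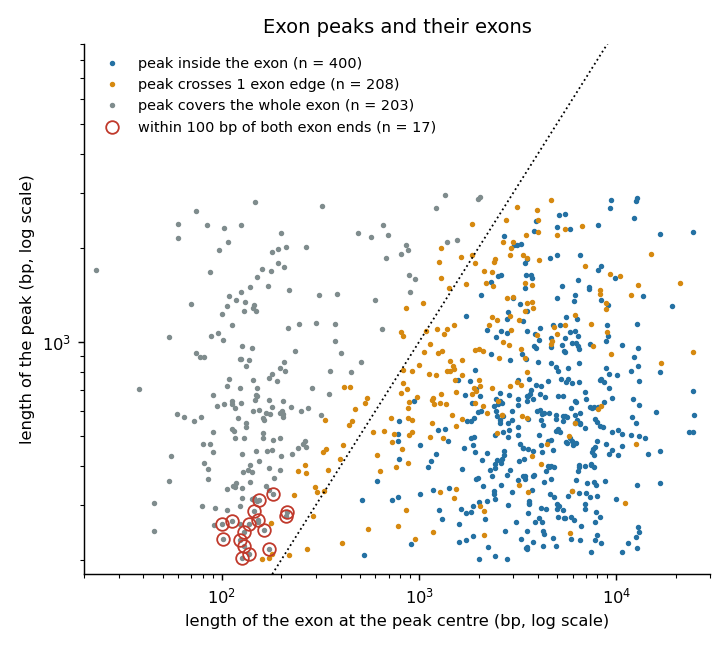
Length of each of the 811 exon peaks (vertical axis, log scale) against the length of the exon at its centre (horizontal axis, log scale). Grey points are peaks that cover the whole exon, orange points cross 1 exon edge and blue points lie inside the exon, and the dotted line marks equal lengths. The 17 red circles, at peak lengths of 203 to 324 bp, ended within 100 bp of both exon ends.

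Most genes held a single exon peak. Of 19810 protein-coding genes, 733, or 3.70%, held at least 1, and 669 of these held 1, 54 held 2, 6 held 3 and 4 held 4. No gene reached the 6 peaks set for naming by number, and the genes with 3 or 4 were named after their counts were seen. *MUC4*, which encodes a membrane mucin, held 4 peaks in its 12708-bp exon 2, with fold enrichments of 3.07, 3.81, 3.71 and 3.21 along the chromosome. This exon encodes tandem repeats, and the authors kept reads with a single best position; the part of the repeats in these peaks was not tested. *RPS6KA5*, a kinase gene, held 4 in its 24462-bp last exon, with values of 3.30, 2.94, 3.23 and 4.04. *NCKAP1*, a subunit gene of the WAVE actin regulator, held 4 in its 16704-bp last exon, within the narrow range of 3.24 to 3.41. *ALG14*, which acts in N-glycan synthesis, held 4 in its 8902-bp last exon, of which 3 had values of 2.56 to 2.69 and the fourth, across the start of the exon, 4.01. The 6 genes with 3 peaks were *CEP43*, *DTX3L*, *LONRF2*, *PGPEP1*, *SLC44A1* and *TNRC6B*. In 5 of them all peaks shared the last exon, and in *DTX3L* 2 lay in exon 3 and 1 in exon 5.

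Genes with an exon peak had a peak at their start more often than protein-coding genes as a whole. A peak lay within 1000 bp of the canonical start in 345 of the 733 genes, or 47.1% (43.5% to 50.7%). Over 19812 protein-coding genes this share was 35.2% (34.5% to 35.8%), and over the 9168 genes with any peak on the transcript it was 57.0% (56.0% to 58.0%). A peak at the start itself can bring a gene into the 9168, whereas an exon peak must lie away from every start. The shares of 47.1% and 57.0% are therefore not alike, and no difference is drawn from them. The canonical transcripts of the 733 genes overlapped a median of 3 peaks and at most 94, and in 168 of them the exon peak was the sole one. At the centre of 160 exon peaks another gene was also annotated, and 17 lay in canonical exons of several protein-coding genes.

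Gene groups were set beside the background of 3.70% of all protein-coding genes and of 15.6 exon peaks per Mb. Among melanocyte and pigment genes 5 of 33 held an exon peak, or 15.2% (6.65% to 30.9%). These were *PAX3*, the cold-sensing channel gene *TRPM8* (3.55, exon 6), the melanocyte master regulator *MITF* (3.16), the receptor kinase gene *KIT* and the endothelin receptor gene *EDNRB* (2.90). The *MITF* peak, from 70015362 to 70017565 on chromosome 3, covered 2122 bp of the 3486-bp last exon and ended 82 bp beyond it, and its −log10 q was 2.15. The *MITF* transcript overlapped 42 peaks of the list, beside a median of 3 over genes with an exon peak. *KIT* held a peak over all of exon 6 (2.95) and one over all of exon 20 (2.76). The 6 peaks of this group gave 67.4 per Mb of exon (24.7 to 147). The 14 groups were chosen with earlier results of these data known, and several intervals are wide, so no group is called different from the rest.

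Genes of NuRD subunits held exon peaks in 3 of 15 cases, or 20% (7.05% to 45.2%), all in the 3' UTR of the last exon. Per Mb of exon this was 54.6 peaks (11.3 to 160), an interval that includes 15.6. These were *MTA2* (3.03), the histone-binding subunit gene *RBBP4* (2.71) and the deacetylase gene *HDAC1* (2.45). None of these 3 peaks reached a −log10 q of 2, the lower of the thresholds used here. *CHD3* and *CHD4* held none. Of 35 large chromatin regulator genes, *BPTF* held 2 (3.48 and 2.96) and *KMT2C*, a histone methyltransferase gene, 1 (2.90). Homeobox, SOX and PAX genes held exon peaks in 2 of 132 cases, *PAX3* and *POU2F1* (2.82), or 1.52% (0.417% to 5.36%).

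Genes with ZNF, ZFP, ZSCAN or ZKSCAN symbols, many of which encode zinc finger arrays in a long last exon, held exon peaks in 10 of 551 cases, or 1.81% (0.989% to 3.31%), and at 4.88 per Mb of exon (2.34 to 8.98). Both intervals lie below the background values of 3.70% and 15.6 per Mb, for genes with these symbols only. Zinc finger genes of other families, such as ZBTB, PRDM and SP genes, were not in the group, and *ZBTB34* (4.62) and *PRDM15* (4.39) had stronger exon peaks than any of its members. The strongest within the group were *ZNF385A* (3.56), *ZNF774* (3.43) and *ZNF428* (3.33), all centred in the 3' UTR. The 36 listed adhesion genes, among them cadherins and integrins, held none, which with 0 of 36 gives an upper bound of 9.64% by the Wilson interval. The cadherin-related gene *CELSR2*, set in another group below, was not among them. Protocadherins held 1 in 62 genes, in *PCDH7* (2.86), and voltage-gated channel genes 2 peaks, both in *KCNQ3*, in 1 of 50 genes.

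Axon guidance genes held exon peaks in 6 of 72 cases, or 8.33% (3.88% to 17.0%), led by *NTNG1*, *EPHA3* (4.03, exon 6) and *EPHA7* (3.40), the last pair encoding ephrin receptors. *EPHA7* held a second peak in the same exon, with 3.17. Collagen genes did so in 4 of 44, or 9.09% (3.59% to 21.2%), among them *COL25A1* (3.34), *COL8A2* (2.89) and *COL11A2* (2.69), all with coding centres. The group of Notch, LRP and related genes gave 3 of 34, or 8.82% (3.05% to 22.96%). These were *MEGF9* (3.26) and *CELSR2* (3.18), which are of neither family, and the lipoprotein receptor gene *LRP1* (3.02). Dynein and myosin heavy chain genes gave 4 of 50, with *MYO9A* (3.16), *MYO1H* (2.79) and *MYO1G* (2.76) highest. Of 25 laminin, basement membrane and related matrix genes *TNXB* (3.07) held 1. Of 18 keratinisation and mucin genes *MUC4* and *MUC19* (3.52) held 5 between them. Of the groups in this paragraph the interval of axon guidance genes lies just above 3.70% and the other 5 include it. Per Mb of exon the axon guidance genes held 21.9 peaks (8.81 to 45.2), and the intervals of all 6 groups on that scale include 15.6. Over the 13 groups with an exon peak the median fold enrichment ran from 2.71 in NuRD genes to 4.003 in homeobox, SOX and PAX genes, the latter from 2 peaks, beside 3.03 for all exon peaks. Of the genes named in the study's CHD4 experiments, *PADI1*, *PADI3*, *PADI2*, *PADI4*, *MAP2*, *THY1*, *RAC2*, *CNTFR* and *SOX10* held no exon peak under these conditions, while *MITF* and *PKM* held 1 each.

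Exon peaks were searched for the consensus of CTCF, an insulator protein that anchors chromatin loops, and for that of AP-1, the FOS and JUN factors, TGACTCA or TGAGTCA. Both strands were read within 250 bp of the peak centre, and the 2 AP-1 forms are each other's reverse complement. A CTCF match was found in 29 of the 811 exon peaks, or 3.58% (2.50% to 5.09%). The share was 0.510% (0.350% to 0.740%) for peaks in first introns, 1.35% (1.16% to 1.57%) in later introns, 1.62% (1.46% to 1.80%) outside transcripts and 1.43% (1.24% to 1.66%) at promoters. In 105876 windows of the same length spaced evenly along exons away from promoters the share was 0.386% (0.351% to 0.426%). In the like windows it was 0.154% (0.111% to 0.213%) in first introns and 0.162% (0.135% to 0.193%) in later introns. Outside transcripts it was 0.175% (0.156% to 0.197%). The interval of exon peaks lies above those of the other groups and of exon windows. Exon windows also lay above the other windows, and peaks in introns and outside transcripts lay above their own windows. A share of peaks above that of windows is thus not particular to exons. A match is a match of letters and not a bound site.

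AP-1 matches were found in 74 exon peaks, or 9.12% (7.33% to 11.3%), beside 6.92% (6.76% to 7.07%) of exon windows. In first and later introns the shares were 11.7% (10.9% to 12.6%) and 11.1% (10.6% to 11.7%) of peaks and 7.87% and 7.30% of windows. The interval of exon peaks lies above that of exon windows and overlaps those of peaks in first and later introns.

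The 29 CTCF matches lay in 29 genes, 17 of them in 3' UTR sequence, 5 in coding sequence and 7 in an intron or across an exon edge. Of these, 26 lay under the peak itself and 18 within 100 bp of its centre. Peaks with a match had a median GC content of 56.0%, beside 44.05% for those without, and a median fold enrichment of 3.02, beside 3.03. The part of base composition in the share of matches was not tested. Only the *COG3* peak among the 29 had a −log10 q of at least 5.

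The 9 CTCF matches shown are the 5 in coding sequence, the 2 strongest in the 3' UTR and the 2 strongest in an intron or across an edge. All but *SUPT5H* were chosen after their values were seen. Each is read along the strand of the match, with the match in capitals.
*COG3*, chr13:46085884-46085913, plus strand: tcttttattCCACCAGAGGGCagtgttcca
*DNAI1*, chr9:34500818-34500847, minus strand: ctatacttaCCAGCAGAGGGCagtgacgga
*PPARGC1B*, chr5:149232752-149232781, minus strand: aacctttggCCACTAGATGGCgaccgcatg
*PRELP*, chr1:203457053-203457082, minus strand: tcccaccagCCACTAGGTGGCaccgatgcg
*SUPT5H*, chr19:39964946-39964975, plus strand: ccagagctaCCACCAGGTGGCgccaagccc
*LRP1*, chr12:57566949-57566978, minus strand: gtgtggcagCCACCAGGGGGCctcgtggct
*MPP4*, chr2:202545620-202545649, plus strand: tcgggcctgCCACCAGAGGGCatcattctg
*C1orf232*, chr1:26490849-26490878, minus strand: acgcgttcgCCAGCAGGTGGCagcagcagc
*MYO1H*, chr12:109870739-109870768, plus strand: cacgggcctCCAGCAGAGGGCgtggaacgg

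The *COG3* match, from 46085893 to 46085904, crosses the start of exon 16, so that the AG which ends the intron is part of it, as in the *COG3* exon printed above. The matches in coding sequence lay close to the peak centres in *MPP4* (3 bp), *LRP1* (8 bp) and *MYO1H* (10 bp), and 145 bp away in *C1orf232*. Among the peaks with a match in coding sequence only that of *SUPT5H* reached a −log10 q of 2, with 2.04. *SUPT5H*, which encodes a transcription elongation factor, had its match in exon 27 under a peak with a fold enrichment of 3.25, and *LRP1* in exon 21 under one of 3.02. The strongest match in the 3' UTR, in *PPARGC1B*, lay under a peak with a fold enrichment of 4.41.

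Over the whole of each peak, AP-1 matches inside coding sequence numbered 9, in 8 peaks. The strongest 2 are shown with 30 bases on either side, along the gene and with the match in capitals.
*MGARP* exon 4 of 4, chr4:140187795-140187861, minus strand: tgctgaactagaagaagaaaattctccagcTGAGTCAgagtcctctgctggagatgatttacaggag
*CPB2* exon 9 of 11, chr13:46632428-46632494, minus strand: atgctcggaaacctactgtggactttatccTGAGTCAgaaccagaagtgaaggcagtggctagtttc
The peaks had fold enrichments of 3.58 and 3.51. In *CPB2*, a carboxypeptidase gene, the match lay 21 bp from the peak centre. In *MGARP*, a mitochondrial protein gene, it lay 213 bp away. Both exons carry the same form, TGAGTCA, when read along the gene.

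**Figure D5:**
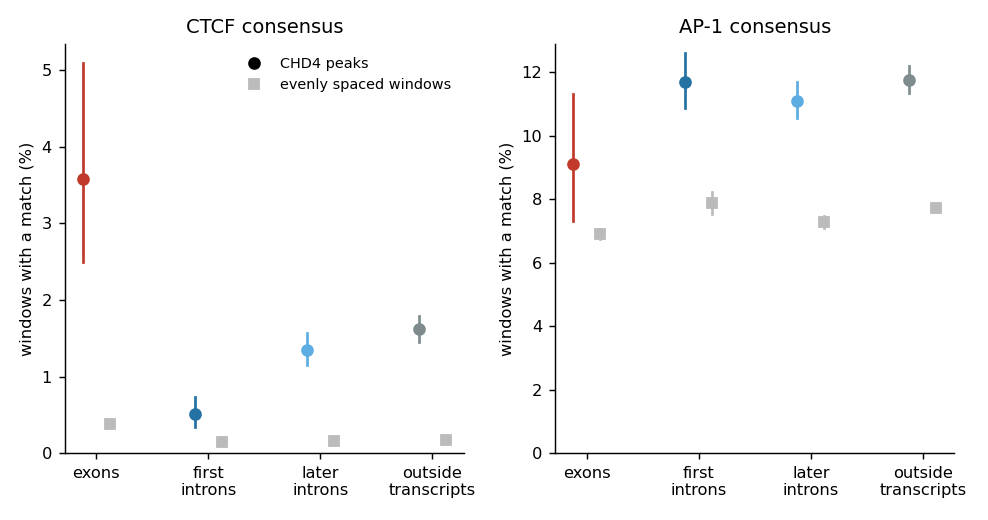
Share of peaks with a match within 250 bp of the centre (coloured points) and share of evenly spaced windows of the same length (grey squares), for the CTCF consensus (left) and the AP-1 consensus (right), with Wilson 95% intervals as lines. Exon peaks, at 3.58% for CTCF, lie above the other groups, and exon windows lie above the other windows. For AP-1 exon peaks lie at 9.12%, below the points of peaks in introns but with intervals that overlap.

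Across chromosomes the exon peaks were most dense on chromosome 19, with 73 peaks or 26.9 per Mb of exon (21.1 to 33.9), and least dense on chromosome X, with 6 peaks or 2.88 per Mb (1.06 to 6.28). Chromosome 22 came next to the highest with 22.8 per Mb (14.6 to 33.99), and chromosomes 18 and 8 next to the lowest with 6.80 (2.73 to 14.02) and 7.55 (4.13 to 12.7). On chromosome 19 the exon peaks were 6.22% of all peaks away from promoters, and on the other chromosomes between 0.852%, on chromosome 8, and 2.99%, on chromosome 22. Chromosome X held 522 peaks away from promoters, of which 1.15% were exonic. The exon share of each chromosome's length was not set beside these shares, so they do not show that exons of any chromosome were favoured or spared.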

How the data were processed

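CHD4 occupancy was measured with 1 ChIP and 1 input library of 501Mel cells. Per the labels, the authors used bcl2fastq 2.17.1.14, Bowtie 1.0.0, hg19 and MACS2 2.1.1.20160309, and the paper's methods state that reads with a single best position were kept. The control of the call was not stated in the sources used here. The deposited list gives, per peak, a score (the −log10 q scaled and cut to a whole number), a fold enrichment (a ratio of ChIP over background), and the −log10 q of the authors' peak caller. Its −log10 p-values were not used here. The list holds no counts.

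Peak positions were converted to 1-based hg19 and compared with GRCh37 and GENCODE release 44 mapped to it. All peaks fitted within the chromosome lengths. Where exons of several genes held a centre, the exon with most bases under the peak was kept. Exon, intron and other lengths were counted outside gaps and the 1000 bp around starts, and windows for motifs were placed at every 500th exon base and every 10000th base elsewhere. Shares carry Wilson and densities exact Poisson intervals at 95%. Assignment was tested on simulated peaks. The 27 peaks on other sequences were left out, and some items that the rule names are not reported here. Members, gene lists and named genes (the 15 strongest, genes with 6 or more exon peaks, the 3 strongest per list, and genes of the study's CHD4 experiments) were chosen with earlier results of these data known. Alternatives covered the q threshold, merged peaks, promoter width, transcripts, overlap and motif region. The computation used pysam 0.24.0 for sequence, scipy 1.17.1 for intervals, pandas 2.3.3 and numpy 2.4.6 for tables, and matplotlib 3.10.9 for plots, under Python 3.11.15.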

Additional observations from a re-analysis of the deposited data

How the results depend on the processing

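No paired analysis was possible because only 1 ChIP and 1 input library exist in the labels and nothing was tested. Of 49 values under 7 alternatives for 13 results, 23 stayed within the 95% interval of the value reported (for counts, within 1.5 times) and 26 did not. A stricter q leaves fewer and stronger peaks by construction, as a wider promoter leaves fewer; for the other shifts the cause was not tested. Where −log10 q had to reach 2 there were 355 exon peaks in 334 genes, with a median fold enrichment of 3.39, 3.94% of them at 5 or more, and 2 genes with 4 or more. Where it had to reach 5 there were 14 peaks in 14 genes, with a median of 4.61; 2.44% of peaks away from promoters were exonic, a ratio to length of 1.23, and 50.0% of centres were coding, 57.1% in last exons, 42.9% over whole exons, 7.14% with a CTCF and 7.14% with an AP-1 match, each from 14 peaks. The coding and last-exon shares thereby turned to the other side of the shares of exon length, 41.0% and 66.1%. These shares of 14 peaks were given without intervals and do not establish a turn. Where −log10 q had to reach 2 the coding share was 33.8%, still below 41.0%. With promoters of 5000 bp there were 426 peaks in 382 genes, 1.52% of the peaks left, with a median GC content of 41.7%. Exons of any transcript gave a share of 2.92%, 20.9% coding centres and 22.2% whole exons. An overlap of 1 bp in place of the centre gave 1981 peaks in 1693 genes and a median of 3.08. Matches anywhere in the peak gave 15.3% for AP-1. Without read counts, the depth behind single peaks is unknown.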
